A study of Mus musculus with 8 samples.

Results

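Oxidative phosphorylation makes most of the ATP of a resting mammalian cell, and its machinery is built from genes of both the nucleus and the mitochondrion. Electrons from NADH and succinate pass through complex I (NADH dehydrogenase) or complex II (succinate dehydrogenase), then complex III and complex IV (cytochrome c oxidase), and the proton gradient that complexes I, III and IV build is used by complex V, the ATP synthase. In macrophages the balance between this pathway and glycolysis is known to shift with activation. The genes described here are those whose symbols mark them as subunits of these complexes or as Nduf and Sdh assembly factors: mt-Nd, mt-Co, mt-Cyt and mt-Atp genes, and genes starting with Nduf, Sdha to Sdhd, Uqcr, Cox4 to Cox8 or Atp5. Of 117 matching symbols in a table of 56980 genes, 109 had a summed count of 80 or more over the 8 libraries, and all 109 passed the filter on low counts that left 12186 genes to test. By genome of origin, 13 were mitochondrially encoded and 96 nuclear. The nuclear genes comprised 80 subunits (37 of complex I, 4 of complex II, 8 of complex III, 14 of complex IV and 17 of complex V), 12 assembly factors and 4 extra copies. The extra copies are the processed pseudogenes Cox6c2, Ndufb4c and Ndufs6b and a second gene ID named Atp5o. Just inside the count minimum were this second Atp5o (81.5 counts), Cox6a2 (141) and Ndufs6b (143). Just outside it was Cox6b2, with 72 counts, and the other 7 symbols below the minimum had 0 to 8.07 counts.

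The series compared macrophages grown from the bone marrow of Grn knockout (GrnKO) and wild-type (WT) mice, 4 cultures of each genotype, all of strain C57/Bl6 and all given the vehicle DMSO. Grn encodes progranulin, a secreted protein that is also delivered to lysosomes. Each culture came from the pooled marrow of multiple mice, which was grown to day 7 in 50 ng/mL M-CSF, frozen, thawed and cultured for 3 days, so each library averages over animals and over cells that survived thawing. The labels name the genotype alone; the age of the mice and the deleted part of Grn are not given in the sources used here. Libraries were 3′ mRNA tags with molecular identifiers, in which each transcript gives tags near its polyadenylated end.

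GrnKO libraries held 5828178 to 7944863 counts and WT libraries 7413222 to 8768772, with RNA integrity numbers of 9.9 to 10. Grn averaged 13.5 ± 0.69 CPM (counts scaled to a common library size) in GrnKO and 1665 ± 266 CPM in WT macrophages (SD, n = 4 each), so the libraries matched their labels. Across all tested genes, 518 were called at an edgeR adjusted p under 0.05, which is 4.25%. This number was 942 without WT replicate 1, 287 without WT replicate 3, and 319, 267, 272 and 314 without GrnKO replicates 1, 2, 3 and 4. All 10 macrophage markers were detected in every library, with summed levels of 7071 to 8775 CPM in GrnKO and 6048 to 10908 CPM in WT. The summed 13 neutrophil markers did not overlap (21.8 to 42.8 CPM in GrnKO, 56.8 to 170.3 CPM in WT), nor did the 9 erythroid and megakaryocyte markers (247 to 285 CPM in GrnKO, 368 to 524 CPM in WT). Alas2, Hba-a1 and Hba-a2 were at 0 in every library, and Pf4 made up most of that last sum. Dendritic cell marker sums were low and also did not overlap (0.892 to 1.79 CPM in GrnKO, 1.89 to 2.18 CPM in WT). Lymphocyte marker sums were 1.40 to 4.88 CPM in GrnKO and 2.53 to 2.89 CPM in WT. Stromal marker sums were 2.23 to 3.95 CPM in GrnKO and 2.01 to 2.86 CPM in WT. The part of these markers in the results below was not tested.

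Mitochondrial mRNAs are cut out of long transcripts that cover most of the mitochondrial genome, and polyadenylation completes the stop codon of some of them. Frame ends are shown for mt-Nd3, the member on which the result below turns, and for its neighbours on the same strand. The assay counts tags near polyadenylated ends. The end of the mt-Nd4l frame overlaps the start of mt-Nd4 by 7 bases, so it need not be such an end. The sequences come from GENCODE M21 transcripts on GRCm38 and run 5′ to 3′. Capitals mark the stop codon, or the single T of a stop codon that polyadenylation completes.
mt-Co3 (chrM:8607-9390, plus strand): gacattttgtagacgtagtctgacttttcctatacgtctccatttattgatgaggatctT
mt-Nd3 (chrM:9459-9806, plus strand): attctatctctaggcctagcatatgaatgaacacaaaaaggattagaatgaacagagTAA
mt-Nd4l (chrM:9877-10173, plus strand): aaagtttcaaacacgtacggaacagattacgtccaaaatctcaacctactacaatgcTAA
mt-Nd4 (chrM:10167-11544, plus strand): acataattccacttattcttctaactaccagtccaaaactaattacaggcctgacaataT

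The coding sequence of mt-Nd3 spans 348 bases. Its whole frame except the stop codon is also present in the nucleus as Gm28438 (chr1:24612775-24613119, minus strand), one of 6 such copies that lie together on chromosome 1. Over the 345 shared bases the copy differed from mt-Nd3 at 1 position, T3C, with positions counted from 1 at the first base of mt-Nd3 and the base of mt-Nd3 given first. The last 60 bases of the copy are shown for comparison with the mt-Nd3 end above; capitals would mark mismatches, and there were none in its last 75 bases, which is the read length.
Gm28438: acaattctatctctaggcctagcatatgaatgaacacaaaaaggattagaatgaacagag
A 75-base tag that lies within these shared bases therefore cannot be assigned to one of the pair by sequence alone, and the counts below are the division the quantifier made. Copies on chromosome 1 were also present for mt-Co1 (98.8% identity over 492 bases) and, with 100% identity, for mt-Co2, mt-Co3, mt-Atp6 and mt-Nd4l. The copies' summed counts were 55.3 to 78.7% of those of their mitochondrial partners. The neighbouring frames of mt-Atp8 and mt-Atp6, which encode complex V subunits, overlap by 43 bases, shown with the start codon of mt-Atp6 in capitals because tags near the end of mt-Atp8 lie inside mt-Atp6.
mt-Atp8 and mt-Atp6 (chrM:7927-7969, plus strand): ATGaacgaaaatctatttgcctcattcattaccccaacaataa

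Among the 109 members, mt-Nd3 was the only one called. It encodes a small core subunit of complex I whose loop takes part in the switch between active and resting enzyme. Its transcript stood at 371, 492, 539 and 477 CPM in GrnKO replicates 1 to 4, against 222, 262, 302 and 314 CPM in WT replicates 1 to 4. Every GrnKO library was above every WT library. The mean was 469.8 ± 70.8 CPM in GrnKO and 275 ± 41.8 CPM in WT macrophages (SD, n = 4 each). That is a log2 fold change of 0.77 ± 0.14 (SE; 95% interval 0.46 to 1.09, edgeR quasi-likelihood test, adjusted p = 0.0104), or 1.71-fold. Leaving out one library at a time gave log2 fold changes of 0.68 to 0.87 with edgeR adjusted p-values of 0.00559 to 0.0466. The count of 1 call among 109 members is 0.917%, against 4.25% of all tested genes; for calls higher in GrnKO the background is 2.79% and for calls lower in GrnKO 1.46%. Without WT replicate 1, 6 members were called: mt-Nd3 (0.68), Cox5a (0.40), Atp5g1 (0.47), Atp5g3 (0.40), Ndufaf4 (0.56) and Cox7a2l (-0.45), given as log2 fold changes. That is 5.5% of the members, against 7.64% of all genes tested in the same refit. Ndufaf4 falls outside the rule by which genes were named and is named because its value was seen.

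Counts assigned to the nuclear copy moved the same way. Gm28438 stood at 221, 309, 334 and 303 CPM in GrnKO replicates 1 to 4, against 116, 121, 176 and 192 CPM in WT replicates 1 to 4. Its log2 fold change was 0.95 ± 0.19 (SE, edgeR adjusted p = 0.0146), and the groups did not overlap. When the counts of the pair were added, an alternative chosen after seeing the data, the level was 762 ± 121 CPM in GrnKO and 426 ± 79.7 CPM in WT, a log2 fold change of 0.84 ± 0.16 (SE, edgeR adjusted p = 0.0104). The call was thus made for mt-Nd3, for its copy and for their sum. These are not independent results, because tags from the shared 3′ end cannot be told apart by sequence. None of the other 5 copies was called by edgeR, 1 of them (Gm29216) had an unadjusted p under 0.05, and Gm28437, the copy of mt-Co3, had a log2 fold change of 0.00 ± 0.11 (SE). Gm29216, the copy of mt-Co1, was at -0.38 ± 0.14 (SE, edgeR adjusted p = 0.167), close to the value of mt-Co1 itself.

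As a share of the counts of all 13 mitochondrial mRNAs, mt-Nd3 took 3.77, 4.16, 4.26 and 4.66% in GrnKO replicates 1 to 4, against 2.16, 1.82, 2.26 and 2.56% in WT replicates 1 to 4. The highest WT share lay below the lowest GrnKO share. With the copies counted in, the shares were 4.52 to 5.77% in GrnKO and 2.11 to 3.06% in WT libraries. These shares do not depend on library scaling. TMM factors of the libraries did not overlap either (0.964 to 0.991 in GrnKO, 0.994 to 1.05 in WT), and without scaling factors the log2 fold change of mt-Nd3 was 0.70 (edgeR adjusted p = 0.0152).

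**Figure D1:**
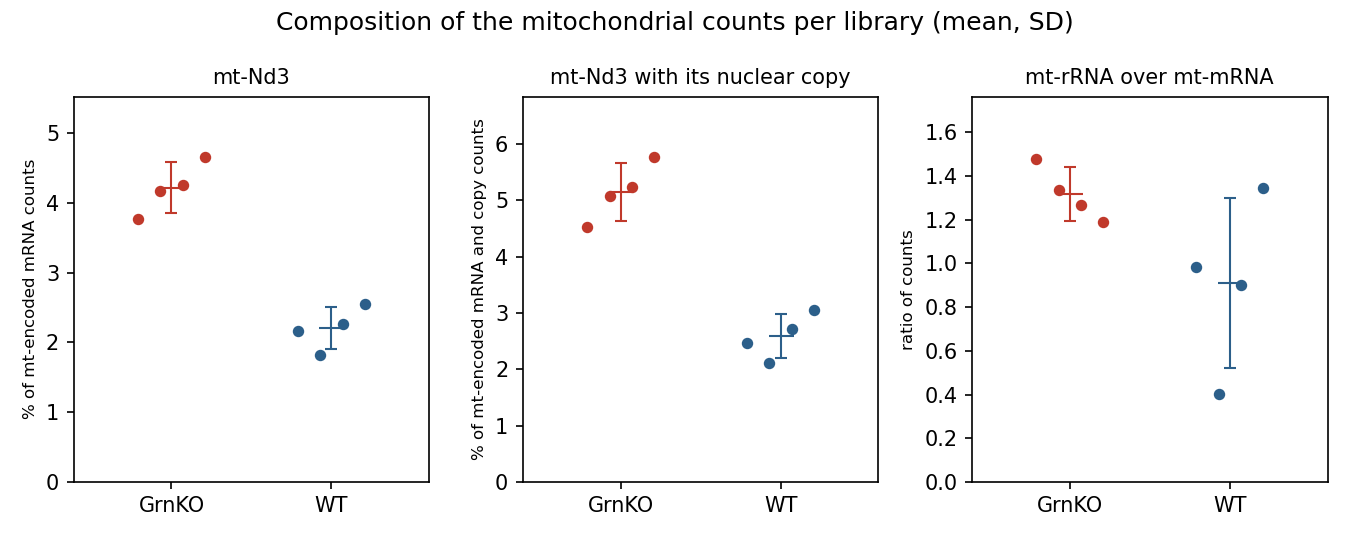
Each point is 1 library; the horizontal mark is the mean and the bar the SD of 4 GrnKO (red, left) or 4 WT (blue, right) libraries. The mt-Nd3 share of mitochondrial mRNA counts (%) was 3.77 to 4.66% in GrnKO and 1.82 to 2.56% in WT libraries, and the ratio of mitochondrial rRNA to mRNA counts overlapped between the genotypes.

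Of the other 12 mitochondrially encoded transcripts none was called by edgeR or DESeq2, and 2, mt-Co1 and mt-Co2, had an unadjusted p under 0.05. Including mt-Nd3, 2 of the 13 had a log2 fold change above 0 and 11 below, with a median of -0.08 and a range of -0.37 to 0.77; the median of all tested genes was -0.03. These signs rested in part on single libraries: 6 of 13 were above 0 without WT replicate 2 and 5 without GrnKO replicate 4, and the median ran from -0.22 without WT replicate 1 to -0.03 without GrnKO replicate 4. Summed over the 13 genes, the level was 11139 ± 1322 CPM in GrnKO and 12578 ± 1771 CPM in WT, with overlapping libraries. As a share of all counts, mitochondrial mRNAs took 0.946 to 1.23% in GrnKO and 1.07 to 1.49% in WT libraries.

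**Figure D2:**
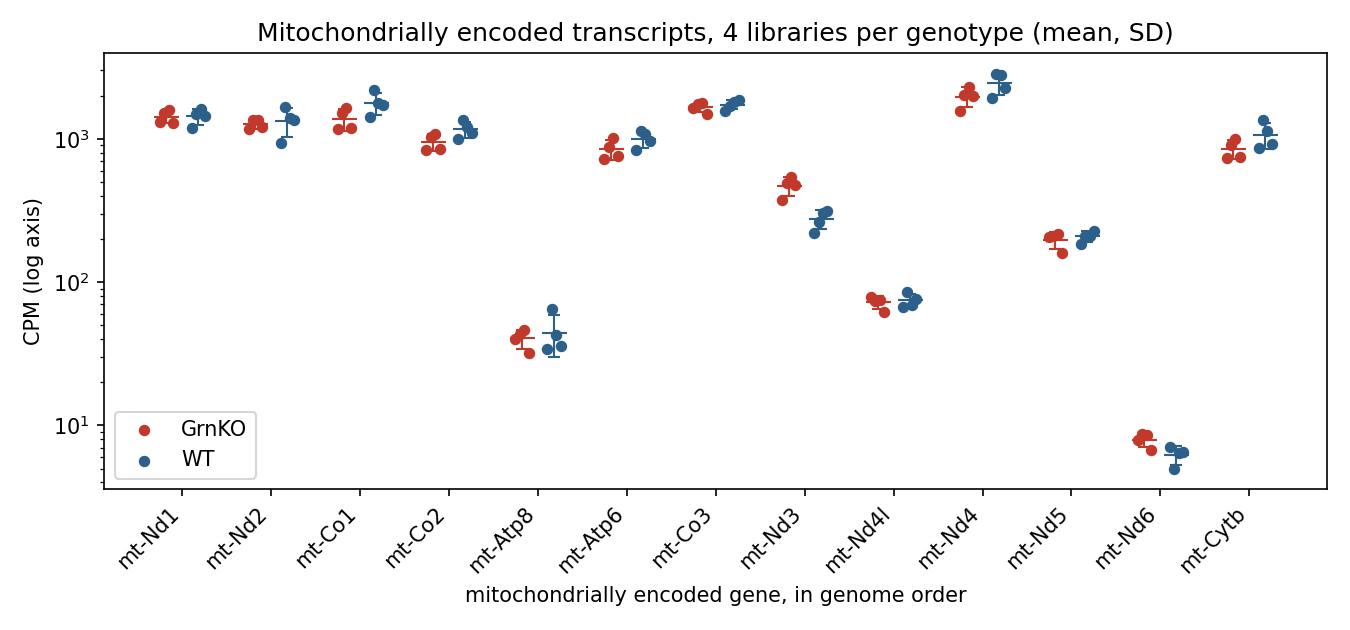
The vertical axis is CPM on a log scale and the horizontal axis the 13 mitochondrially encoded genes in genome order; points are libraries, with GrnKO (red) left of WT (blue), and marks show the mean and SD of 4 libraries. The groups are apart for mt-Nd3 (371 to 539 CPM in GrnKO, 222 to 314 CPM in WT) and overlap for the other 12 genes.

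The complex IV transcripts mt-Co1 and mt-Co2, which encode its catalytic core, had the lowest unadjusted p-values on the negative side. Levels of mt-Co1 were 1168, 1504, 1639 and 1181 CPM in GrnKO replicates 1 to 4, against 1428, 2206, 1769.6 and 1715 CPM in WT replicates 1 to 4. GrnKO replicates 2 and 3 lay above WT replicate 1, the lowest of its group, and the log2 fold change was -0.37 ± 0.15 (SE, edgeR adjusted p = 0.22). With every gene with a count tested, mt-Co1 was called lower at -0.39 (edgeR adjusted p = 0.0363; 0.0363 to 0.42 over the alternatives), and 2 of the 109 members stood beside 2.51% of all genes. For mt-Co2 the levels were 829.9, 1036, 1079 and 854 CPM in GrnKO replicates 1 to 4, against 999.9, 1355, 1207 and 1097 CPM in WT replicates 1 to 4, with a log2 fold change of -0.29 ± 0.13 (SE, edgeR adjusted p = 0.246). The third complex IV transcript, mt-Co3, lies next to mt-Nd3 and stood at 1668 ± 131 CPM in GrnKO and 1729.6 ± 128 CPM in WT (SD, n = 4 each). Its log2 fold change of -0.05 had a 95% interval of -0.26 to 0.16, which does not reach the value of mt-Nd3.

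Complex III has a single mitochondrially encoded subunit, cytochrome b. Its transcript mt-Cytb was at 733, 909.6, 997 and 748 CPM in GrnKO replicates 1 to 4, against 863, 1353, 1138 and 926 CPM in WT replicates 1 to 4. The libraries overlapped and the log2 fold change was -0.34 ± 0.15 (SE, edgeR adjusted p = 0.285). The complex V transcripts mt-Atp6, for the proton channel subunit, and mt-Atp8 had log2 fold changes of -0.24 ± 0.13 and -0.13 ± 0.21 (SE). For mt-Atp8 the sign turned to 0.11 without WT replicate 2, where it stood at 64.9 CPM against 34.0 to 42.8 CPM in the other WT libraries.

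The other 6 complex I transcripts were not called. On the downstream side of mt-Nd3, counts assigned to mt-Nd4l averaged 72.4 ± 7.15 CPM in GrnKO and 74.4 ± 8.09 CPM in WT. That is a log2 fold change of -0.04 (95% interval -0.31 to 0.23). The end of the mt-Nd4l frame lies inside mt-Nd4, so these tags may not mark a separate transcript end. Levels of mt-Nd4, whose frame starts inside mt-Nd4l, were 1566, 2028, 2316 and 1975 CPM in GrnKO replicates 1 to 4, against 1933, 2842, 2776 and 2260.3 CPM in WT replicates 1 to 4, a log2 fold change of -0.32 ± 0.15 (SE, edgeR adjusted p = 0.296). Log2 fold changes were -0.01 ± 0.12 for mt-Nd1, -0.08 ± 0.15 for mt-Nd2 and -0.07 ± 0.12 for mt-Nd5 (SE). The transcript mt-Nd6 comes from the opposite strand and was scarce, at 7.97 ± 0.884 CPM in GrnKO and 6.25 ± 0.925 CPM in WT; its log2 fold change was 0.34 ± 0.19 (SE, edgeR adjusted p = 0.382). No source used here states whether counting used strand, so tags from antisense RNA of its neighbours cannot be told apart from mt-Nd6.

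The mitochondrial rRNAs, which are not members, gave a second view of the mitochondrial transcripts. They held 1.20 to 1.56% of counts in GrnKO and 0.599 to 1.64% in WT libraries, and the lowest value was that of WT replicate 2. In that library the ratio of rRNA to mRNA counts was 0.403, against 1.19 to 1.48 in the GrnKO libraries and 0.902 to 1.35 in the other WT libraries. WT replicate 2 also had the highest levels among all 8 libraries of mt-Nd2, mt-Co1, mt-Co2, mt-Cytb, mt-Nd4l, mt-Nd4, mt-Atp6 and mt-Atp8. Neither mt-Rnr1 (log2 fold change 0.40 ± 0.22, SE) nor mt-Rnr2 (0.39 ± 0.26, SE) was called. The tested mitochondrial tRNAs, also not members, were scarce, none above a mean of 15.8 CPM in either group, and none was called. All were higher in GrnKO, with log2 fold changes of 0.72 ± 0.37 (mt-Tg), 1.31 ± 0.38 (mt-Tm), 0.37 ± 0.40 (mt-Tn), 0.50 ± 0.29 (mt-Tq) and 1.25 ± 0.55 (mt-Tw, SE). The groups did not overlap for mt-Tm and mt-Tq, against 12% of all tested genes. The mt-Nd3 difference was as large without WT replicate 2, at a log2 fold change of 0.75 (edgeR adjusted p = 0.0294).

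None of the 96 nuclear members was called in either direction. Their log2 fold changes ran from -0.31 to 0.36 with a median of 0.08, and 66 lay above 0 and 30 below. This lean moved with the scaling: without scaling factors 48 lay above and 48 below with a median of 0.00, and in limma on the deposited log2 CPM values 52 lay above and 44 below. Without GrnKO replicate 4 the median was 0.03. At an unadjusted p under 0.05, 4 nuclear members remained, all higher in GrnKO, against 17.6% of all tested genes; DESeq2 called 1 nuclear member, Atp5e, and 7.1% of all tested genes. In 6 of the 109 members the GrnKO and WT libraries did not overlap, all higher in GrnKO, which is 5.5% against 12% of all tested genes. The 95% interval of the fold change lay wholly within 1.5-fold in either direction for 82 of the 109 members (75.2%), against 44.5% of all tested genes. The members' median SE on the log2 scale was 0.13 and that of all tested genes 0.18. For these 82 a genotype difference beyond 1.5-fold lies outside the interval, while some smaller differences lie within it.

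**Figure D3:**
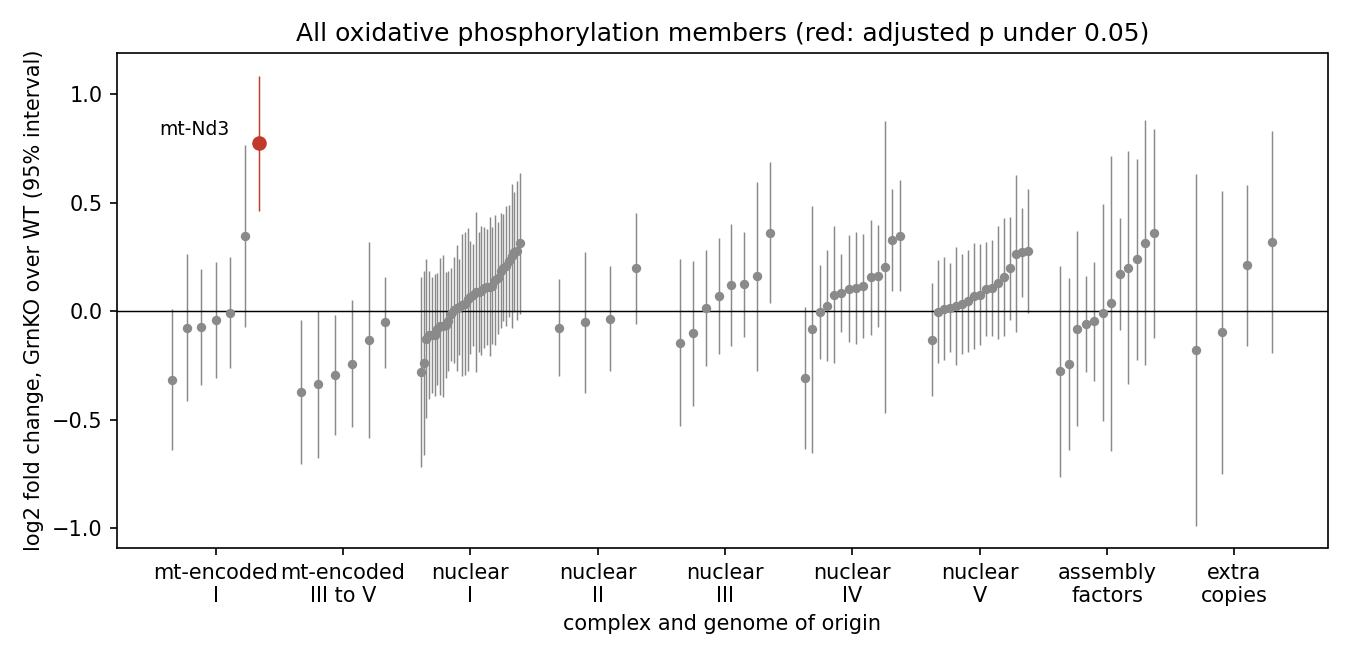
Points are the log2 fold changes (GrnKO over WT) of the 109 members and lines their 95% intervals, grouped along the horizontal axis by complex and genome of origin and sorted within each group. The red point, mt-Nd3 at 0.77, is the only member with an edgeR adjusted p under 0.05, and the nuclear members lie between -0.31 and 0.36.

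Complex I takes electrons from NADH, and its 37 nuclear subunits had a median log2 fold change of 0.06, with 25 above 0 and 12 below (range -0.28 to 0.31). The groups did not overlap for 2 of the 37, Ndufb2 and Ndufv2, which is 5.41% against 12% of all tested genes. Ndufv2 falls outside the naming rule and is named because its value was seen. Its log2 fold change was 0.20 ± 0.11 (SE, edgeR adjusted p = 0.393). Ndufb2, an accessory subunit of the membrane arm, was at 87.1, 91.1, 100.5 and 123 CPM in GrnKO replicates 1 to 4, against 85.7, 86.8, 79.8 and 80.5 CPM in WT replicates 1 to 4. The lowest GrnKO library exceeded the highest WT library by a margin smaller than the spread within either group, and the log2 fold change was 0.27 ± 0.13 (SE, edgeR adjusted p = 0.287). Ndufb6, also of the membrane arm, had 93.6 ± 11.5 CPM in GrnKO and 75.4 ± 13.8 CPM in WT (log2 fold change 0.31 ± 0.15, SE, edgeR adjusted p = 0.301). The subunit that binds FMN and NADH, Ndufv1, and the iron-sulfur subunit Ndufs1 had log2 fold changes of 0.19 ± 0.12 and 0.23 ± 0.12 (SE). Ndufb1, the nuclear complex I member with the most tags, was nearly equal in the groups, at 318 ± 23.2 CPM in GrnKO and 321 ± 21.7 CPM in WT.

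Complex II is encoded wholly in the nucleus and also works in the citric acid cycle. Its 4 subunits had a median log2 fold change of -0.04, and all 4 intervals lay within 1.5-fold. The flavoprotein Sdha averaged 192 ± 16.5 CPM in GrnKO and 202 ± 11.2 CPM in WT, and the iron-sulfur protein Sdhb 105 ± 3.05 CPM in GrnKO and 107 ± 12.5 CPM in WT (SD, n = 4 each). The membrane anchor Sdhc had a log2 fold change of 0.20 ± 0.12 (SE, edgeR adjusted p = 0.414). Summed over the 4 genes, the level was 482 ± 22.7 CPM in GrnKO and 483 ± 42.6 CPM in WT.

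Complex III passes electrons to cytochrome c. Its 8 nuclear subunits had a median log2 fold change of 0.09, with 6 above 0. Uqcrq, a small subunit that contacts cytochrome b, stood at 143, 119, 144 and 169 CPM in GrnKO replicates 1 to 4, against 121, 131, 108 and 87.6 CPM in WT replicates 1 to 4. The libraries overlapped, since GrnKO replicate 2 lay below WT replicates 1 and 2, and the log2 fold change of 0.36 ± 0.15 (SE, edgeR adjusted p = 0.226) was the highest among the nuclear members. The Rieske iron-sulfur protein Uqcrfs1 was at -0.15 ± 0.18, Uqcr10 at 0.12 ± 0.11 and the hinge protein Uqcrh at 0.02 ± 0.12 (log2 fold change and SE).

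Complex IV reduces oxygen, and several of its nuclear subunits exist in tissue-specific forms. Its 14 nuclear subunits had a median log2 fold change of 0.10, with 11 above 0 and 3 below. Cox5a, which surrounds the catalytic core, was at 286.1, 312, 307 and 338 CPM in GrnKO replicates 1 to 4, against 285.3, 220.3, 241 and 245 CPM in WT replicates 1 to 4. The groups did not overlap, although GrnKO replicate 1 and WT replicate 1 were nearly equal, and the log2 fold change was 0.33 ± 0.11 (SE, edgeR adjusted p = 0.129). Cox6a1, the form found in most tissues, stood at 178, 198, 205 and 238 CPM in GrnKO replicates 1 to 4, against 175, 163, 164 and 142 CPM in WT replicates 1 to 4. These groups did not overlap either, and the log2 fold change was 0.35 ± 0.12 (SE, edgeR adjusted p = 0.136).

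The paired forms of complex IV subunits kept the pattern of a non-muscle tissue in both genotypes. The heart and muscle forms Cox6a2 and Cox7a1 were at 2.58 ± 0.848 and 6.72 ± 1.86 CPM in GrnKO, against 2.22 ± 0.432 and 7.15 ± 2.07 CPM in WT. Cox8b and the lung form Cox4i2 had no count in any library, and Ndufa4l2, an alternative form of Ndufa4, had 2 counts over all 8 libraries. The broadly expressed forms averaged 242 ± 13.9 CPM (Cox4i1), 358 ± 54.7 CPM (Cox6b1), 231 ± 25.5 CPM (Cox7a2) and 381 ± 43.9 CPM (Cox8a) in GrnKO. In WT they averaged 225 ± 29.8 CPM (Cox4i1), 333 ± 17.9 CPM (Cox6b1), 207 ± 24.8 CPM (Cox7a2) and 340.4 ± 21.2 CPM (Cox8a). Ndufa4, once assigned to complex I and counted here with complex IV, had 205 ± 11.03 CPM in GrnKO and 189 ± 21.8 CPM in WT.

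Cox7a2l, which joins complex III to complex IV in supercomplexes and is carried in a shortened form by C57BL/6 mice, had the lowest log2 fold change of the nuclear members. It stood at 306, 277, 282 and 274 CPM in GrnKO replicates 1 to 4, against 247, 423, 352 and 389 CPM in WT replicates 1 to 4. WT replicate 1 lay below every GrnKO library and the other 3 WT libraries above them. The log2 fold change was -0.31 ± 0.15 (SE, edgeR adjusted p = 0.307), and without WT replicate 1 it was -0.45 (edgeR adjusted p = 0.0188; 0.0188 to 0.524 over the alternatives). Cox7c, the nuclear complex IV member with the most tags, was at 655 ± 8.28 CPM in GrnKO and 618 ± 25.0 CPM in WT. Its near-identical copies, chiefly Cox7c-ps1, held 58.8% as many counts as Cox7c, so the division between them is uncertain.

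Complex V makes ATP. Its 17 nuclear subunits had a median log2 fold change of 0.08, with 15 above 0, and the 95% interval lay within 1.5-fold for 16 of them. Atp5e, a small subunit of the rotating stalk, was at 153, 149, 145 and 156 CPM in GrnKO replicates 1 to 4, against 128, 120.2, 129 and 122 CPM in WT replicates 1 to 4. Every GrnKO library was above every WT library with narrow spreads (150.5 ± 4.94 CPM in GrnKO, 125 ± 4.48 CPM in WT), and the log2 fold change was 0.27 ± 0.09 (SE, edgeR adjusted p = 0.144). Atp5b, the catalytic beta subunit, averaged 260.2 ± 37.9 CPM in GrnKO and 233 ± 23.1 CPM in WT, a log2 fold change of 0.16 ± 0.12 (SE). Atp5l, the nuclear complex V member with the most tags, had 1452 ± 147 CPM in GrnKO and 1417 ± 129 CPM in WT, and 8 other genes share its 3′ end.

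The ring that turns with proton flow is made of copies of 1 protein, subunit c, which is encoded by Atp5g1, Atp5g2 and Atp5g3 with the same mature sequence. Atp5g3 stood at 1462, 1236, 1329 and 1401 CPM in GrnKO replicates 1 to 4, against 1395, 925, 1168 and 989 CPM in WT replicates 1 to 4. It overlapped through WT replicate 1, and the log2 fold change was 0.28 ± 0.13 (SE, edgeR adjusted p = 0.294). Atp5g1 averaged 111 ± 7.37 CPM in GrnKO and 92.0 ± 24.7 CPM in WT, a log2 fold change of 0.26 ± 0.16 (SE), and WT replicate 1, at 129 CPM, stood apart from the other WT libraries. Atp5g2 was nearly equal, at 98.9 ± 4.15 CPM in GrnKO and 99.2 ± 9.66 CPM in WT, and genes that share its 3′ end held 167% of its counts.

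**Figure D4:**
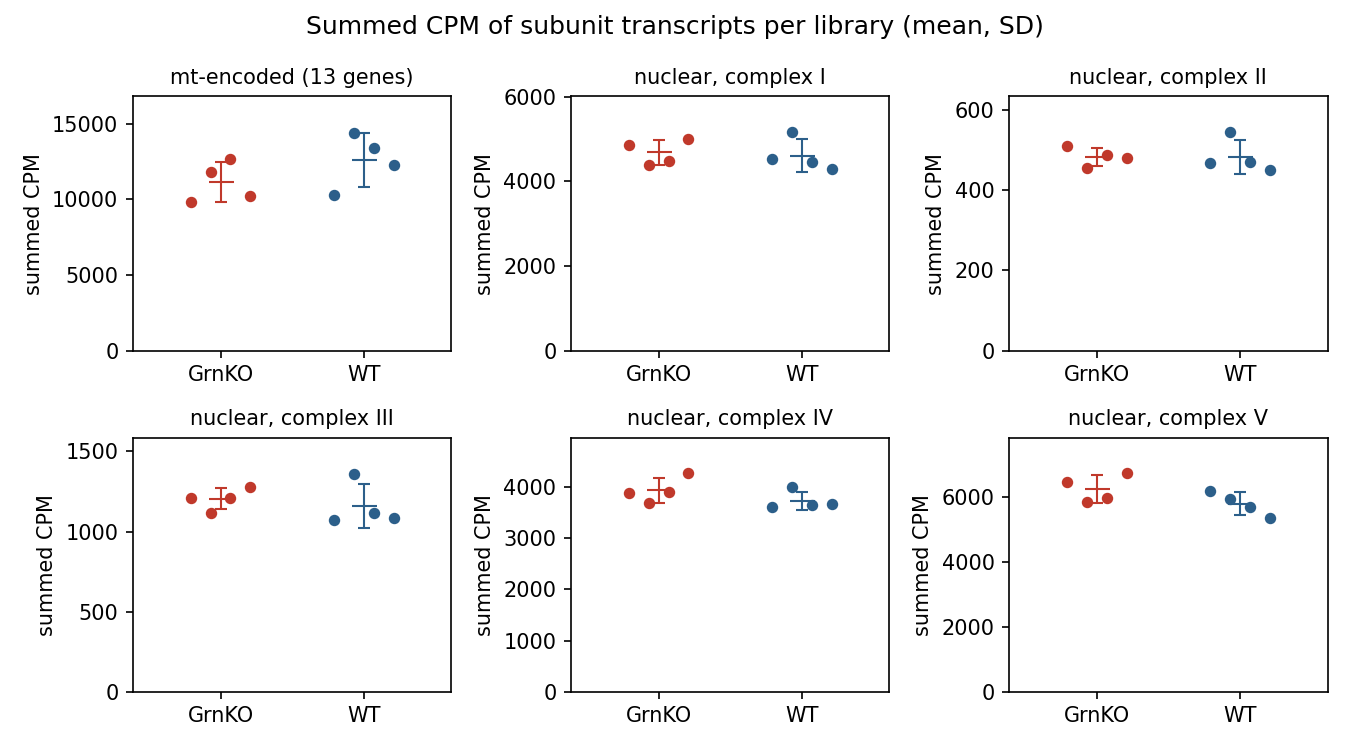
Vertical axes give the summed CPM, starting at 0, of the 13 mitochondrially encoded genes and of the nuclear subunits of each complex; points are libraries, GrnKO (red) left of WT (blue), with the mean and SD of 4. Libraries of the genotypes overlapped in all 6 panels, with means of 11139 CPM in GrnKO and 12578 CPM in WT for the mitochondrial genes and 6264 CPM in GrnKO and 5813 CPM in WT for nuclear complex V.

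In complexes I, III, IV and V the nuclear sum averaged higher and the mitochondrial sum lower in GrnKO than in WT on the TMM scale, by less than the range of the libraries. Without that scaling the nuclear side did not lean: nuclear members took 1.52 to 1.79% of all counts in GrnKO and 1.497 to 1.79% in WT libraries. In complex IV the nuclear subunits summed to 3932 ± 246 CPM in GrnKO and 3723 ± 177 CPM in WT, and the 3 mitochondrial ones to 3991 ± 478 CPM in GrnKO and 4674 ± 515 CPM in WT (SD, n = 4 each). In complex V the nuclear subunits summed to 6264 ± 419 CPM in GrnKO and 5813 ± 349 CPM in WT, and the 2 mitochondrial ones to 885 ± 136 CPM in GrnKO and 1044 ± 145 CPM in WT. In complex I the nuclear subunits summed to 4688 ± 299 CPM in GrnKO and 4611 ± 389.8 CPM in WT, and the 7 mitochondrial ones to 5416 ± 607 CPM in GrnKO and 5790.04 ± 925 CPM in WT. In complex III the nuclear subunits summed to 1204 ± 65.0 CPM in GrnKO and 1158 ± 137 CPM in WT, beside the mt-Cytb values given above. Libraries of the genotypes overlapped in each of these sums. The ratio of nuclear to mitochondrial member counts, which uses no scaling, was 1.29 to 1.77 in GrnKO and 1.17 to 1.58 in WT libraries, also overlapping.

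Libraries of 1 genotype also differed among themselves. Relative to the WT mean, the median nuclear member stood 0.18 higher on the log2 scale in GrnKO replicate 4 and -0.01 to 0.06 in the other GrnKO libraries. In WT it stood at 0.12 in replicate 2 and -0.12 in replicate 4. The median mitochondrial member was at -0.30 in GrnKO replicate 4 and -0.27 in WT replicate 1, against 0.20 in WT replicate 2. The mean log2 CPM of 35 cell cycle genes was 6.43 in GrnKO replicate 4 and 5.81 to 5.94 in the other GrnKO libraries, against 6.82 in WT replicate 1, 5.34 in WT replicate 4 and 6.26 to 6.27 in the other WT libraries. With this mean as a covariate, 5 members were called, mt-Nd3 with Cox5a, Cox6a1, Uqcrq and Ndufb6, all higher in GrnKO, with edgeR adjusted p-values of 0.00154 to 0.0429. These are 4.59% of the members, against 9.35% of all tested genes in that fit.

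The 12 assembly factors, proteins that help to build complexes I and II without staying in them, had a median log2 fold change of 0.01, with 6 above 0 and 6 below. Ndufaf3 had the largest, 0.36 ± 0.22 (SE, edgeR adjusted p = 0.434), at 14.05 ± 3.81 CPM in GrnKO and 11.0 ± 2.17 CPM in WT. Sdhaf2, which inserts FAD into Sdha, was at 0.17 ± 0.12, and Ndufaf8, the one with the most tags, at -0.06 ± 0.10 (log2 fold change and SE). The interval lay within 1.5-fold for 5 of the 12, which are mostly transcripts of few tags. A wider list of 42 tested assembly factors for the 5 complexes had no call by edgeR or DESeq2 and a median log2 fold change of 0.04. In edgeR 2 of the 42 had an unadjusted p under 0.05, against 17.6% of all tested genes. The lowest p-values of this list belonged to Coa8 (0.34 ± 0.15) and Coa4 (0.41 ± 0.18, SE), both linked to complex IV assembly.

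Genes that act upstream and around the complexes gave no edgeR call either. The lists held, as tested, 19 genes of mitochondrial transcription and replication, 13 translation factors and 78 mitochondrial ribosomal proteins, with medians of the log2 fold change of -0.10, -0.05 and -0.03. An unadjusted p under 0.05 was reached by 0, 1 and 5 of them, against 17.6% of all tested genes. DESeq2 called 3 of the 78 ribosomal proteins, Mrps6, Mrpl41 and Mrpl34, and no gene of the first 2 lists, against 7.1% of all tested genes. In edgeR, Mrps6 was at 0.75 ± 0.20 (SE, edgeR adjusted p = 0.0619) and Mrpl41 at 0.58 ± 0.16 (SE, edgeR adjusted p = 0.062). The transcription termination family member Mterf3 had 0.52 ± 0.25, the polymerase accessory subunit Polg2 -0.77 ± 0.39, the elongation factor Tufm 0.35 ± 0.15 and Rmnd1, which aids mitochondrial translation, 0.52 ± 0.29 (log2 fold change and SE). Of 11 regulators of mitochondrial biogenesis, Gabpb1, part of the factor known as NRF2 that acts on many of these nuclear genes, was at 14.4 ± 2.63 CPM in GrnKO and 21.7 ± 2.15 CPM in WT, a log2 fold change of -0.59 ± 0.16 (SE, edgeR adjusted p = 0.0729); it was the only one of the 11 with an unadjusted p under 0.05 and was called by DESeq2. Tfeb, a regulator of lysosome genes, was at 0.27 ± 0.18 (SE).

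Supply of electrons and export of ATP were covered by 3 further lists without an edgeR call. An unadjusted p under 0.05 was reached by 4, 1 and 2 of their genes, against 17.6% of all tested genes. DESeq2 called Mpc1 and Coq10b, against 7.1% of all tested genes. Of these 3 lists limma-voom called Mpc1 alone, and it called 508 of all tested genes. The 20 genes of pyruvate oxidation and the citric acid cycle had a median log2 fold change of 0.08. Mpc1, a subunit of the carrier that brings pyruvate into mitochondria, averaged 224 ± 9.95 CPM in GrnKO and 149 ± 33.2 CPM in WT, a log2 fold change of 0.59 ± 0.15 (SE) with an edgeR adjusted p = 0.05002. Idh2, the mitochondrial isocitrate dehydrogenase, was at -0.30 ± 0.10 (SE, edgeR adjusted p = 0.153). The 20 genes of cytochrome c and coenzyme Q had a median of 0.07, with Coq10b at 0.54 ± 0.16 (SE, edgeR adjusted p = 0.0942) and Coq8b at 0.35 ± 0.23 (SE). All 7 tested ADP, phosphate and uncoupling carriers and porins lay above 0 with a median of 0.14, among them the ADP/ATP carrier Slc25a5 at 0.39 ± 0.17 and the porin Vdac2 at 0.21 ± 0.09 (log2 fold change and SE). The ATP synthase inhibitor gene Atpif1, outside the symbol rule, was at -0.11 ± 0.13 (SE).

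Marker and cell cycle lists gave the values that stand beside these results. Of 35 cell cycle genes none was called by edgeR and 1, Cenpf, by DESeq2. An unadjusted p under 0.05 in edgeR was reached by 5 of them, against 17.6% of all tested genes. Below 0 lay 32 of the 35, with a median log2 fold change of -0.22. Mki67 was at -0.73 ± 0.28 (SE, edgeR adjusted p = 0.187) and Cenpf at -0.70 ± 0.21 (SE, edgeR adjusted p = 0.0898). Of 10 macrophage markers Aif1 fell by 1.02 on the log2 scale (SE 0.15, edgeR adjusted p = 0.00229) and 9 were not called. In all, 9 of the 10 lay below 0, with a median log2 fold change of -0.39. An unadjusted p under 0.05 in edgeR was reached by 7, 6 of them lower in GrnKO, against 17.6% of all tested genes. The groups did not overlap in 6, against 12% of all tested genes. Of 5 tested neutrophil markers edgeR called 3 lower, with log2 fold changes of -2.73 (S100a9), -2.04 (S100a8) and -2.39 (Ngp). Pf4 was called lower too, with -0.82. The edgeR adjusted p-values of these 4 genes were 0.00147 to 0.033. Of all tested genes edgeR called 4.25%, and 1.46% as lower in GrnKO. DESeq2 called 5 of the 10 macrophage and 4 of the 5 tested neutrophil markers, against 7.1% of all tested genes. In bulk RNA, fewer cells of a type and less RNA per cell cannot be told apart, and this holds for the mitochondrial transcripts too, whose level per cell and number of mitochondria per cell were not measured separately.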

How the data were processed

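Salmon and the build GRCm39 are named in the submitters' processing notes; no Salmon version or strand setting is given in the sources used here. The authors deposited estimated counts for each gene. The deposited log2 CPM values served only as an alternative. Unique molecular identifiers were used to remove PCR duplicates, per the labels' protocols. Estimated counts, 36.4% of the non-zero ones not whole, were rounded. Symbols came from the deposited gene table. No library was a repeat of another: within a group, the chi-square per degree of freedom was at least 3.07.

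GrnKO was compared with WT in edgeR 4.0.16 (R 4.3.3; filterByExpr, TMM, robust quasi-likelihood F test) over 12186 genes, with Benjamini-Hochberg adjustment and a call at adjusted p under 0.05. CPM uses TMM-scaled library sizes. SE follows from the F statistic. CPM is not divided by transcript length, because a 3′ tag assay gives tags at 1 end; genes are named by most tags, not by level. P-values measure the spread between pooled cultures. The replicate labels do not say whether the cultures of a genotype came from separate pools of marrow. If they shared a pool, the p-values and SDs hold no spread between animals. The procedure was also run on simulated counts drawn with the dispersions that edgeR estimated, the same for both groups. That run does not test how the procedure handles groups of unequal spread.

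Genes sharing a 3′ end were found with blastn 2.17.0: GENCODE M21 transcripts matching the last 300 bases of a member at 98% identity or more over at least 75 bases. This held for 28 of 109 members, 6 of them mitochondrial. IDs were matched across builds.

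Alternatives were other scaling factors, 2 filters, DESeq2 1.42.0, limma 3.58.1 (voom, and trend on the deposited log2 values), non-robust dispersions, a replicate block, a cell cycle covariate, each library left out, a stricter threshold and a higher count minimum. The members, the 15 other gene lists and the complexes were chosen with earlier results of these data known. Named genes are Grn, all mitochondrially encoded and called members, the 2 lowest p-values and the most tags in each complex and in the assembly factors, paralog groups, core subunits, and up to 4 called or 2 other genes of each other list. Atpif1, Ndufaf4, Ndufv2 and the mitochondrial rRNAs, tRNAs and nuclear copies were named after their values were seen.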

Additional observations from a re-analysis of the deposited data

Results flagged for a closer look

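Within each group of 4 libraries, the gap between the extreme library and its nearest neighbour was divided by the range, and a value above Dixon's critical value for 4 samples was listed. Chance lists about 1 in 20 groups, and 9 of 130 groups examined were listed; none belonged to mt-Nd3.

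In GrnKO, Ndufb6 in replicate 4 (111 CPM; nearest 88.0 CPM) had a gap of 0.979 of the range, Sdhaf2 in replicate 2 (31.4 CPM; nearest 38.0 CPM) 0.963 and Sdha in replicate 1 (216 CPM; nearest 186 CPM) 0.853. In WT, replicate 2 was the high library for Sdhb (126 CPM; nearest 102 CPM; gap 0.949), Cox7a1 (10.2 CPM; nearest 6.35 CPM; 0.888), Cox6b1 (359 CPM; nearest 327 CPM; 0.845) and the summed nuclear complex III subunits (1361 CPM; nearest 1114 CPM; 0.864). WT replicate 1 stood high for Atp5g1 (129 CPM; nearest 82.9 CPM; 0.882) and for the ratio of nuclear to mitochondrial member counts (1.58; nearest 1.23; 0.844).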

How the results depend on the processing

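The call of mt-Nd3 and its direction held in all 20 refits, including every left-out library, and it was lost only at an adjusted p under 0.01. Genes called numbered 518, against 918 with every gene with a count, 865 with DESeq2, 1139 with the cell cycle covariate, 209 at an adjusted p under 0.01 and 267 to 942 with 1 library left out. Members called numbered 1, against 2 with every gene with a count (mt-Co1 added, lower), 2 with DESeq2 (Atp5e added), 5 with the cell cycle covariate, 0 at an adjusted p under 0.01 and 1 to 6 with 1 library left out. Nuclear members higher numbered 0, against 1 with DESeq2, 4 with the cell cycle covariate and 0 to 4 with 1 library left out, and nuclear members lower 0 to 1. Mitochondrially encoded members lower numbered 1 with every gene with a count, and those higher 0 at an adjusted p under 0.01. The nuclear median was 0.03 to 0.10 and the mitochondrial median -0.22 to -0.03 with 1 library left out. With the replicate block 220 genes and 1 member were called; same-numbered libraries deviated together with correlations of -0.07, -0.13, 0.14 and -0.37, so the numbers were not taken to pair the cultures. The causes of these changes were not tested. Low-level members such as mt-Nd6, Cox6a2 and 7 of the 12 assembly factors have intervals that reach beyond 1.5-fold. Some members with many tags do too, among them mt-Nd4, mt-Co1, mt-Cytb and Cox7a2l, at means over both genotypes of 2212, 1576, 959 and 319 CPM. For all of these a difference of that size lies within the interval.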
